A study of Rattus norvegicus with 8 samples.

Results

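Cell cycle and DNA replication genes were followed in rat kidney after allopurinol. The set held 41 named genes, 16 that act in G1 and S phase (the S phase members) and 25 that act in G2 and mitosis (the mitotic members). Members were found through array probes whose RefSeq accession maps to one of the 41 symbols, which gave 50 of the 30367 probes. No probe was matched for Mcm5, Bub1b, Cenpe and Top2a, which were not analysed here. The probes of Ccne1 and Cenpa were too dim to test. That left 35 members, 14 of S phase and 21 mitotic, among 21420 genes or transcripts tested.

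Total RNA from kidneys of male SD rats, 10 weeks old, was hybridised to 8 single-colour Agilent arrays. The APL group, 4 arrays, had received APL at 150 mg/kg for 4 weeks. The Control group, also 4 arrays, had been given 0.5% methylcellulose, a vehicle, for 4 weeks. APL was read as allopurinol, the xanthine oxidase inhibitor named in the series title, which describes a renal fibrosis model and renal tubules, whereas the tissue label says kidney. No label says that the arrays of a group came from separate animals, so p-values measure the spread between these samples. In whole tissue, a change in the number of cells of a type and a change in RNA per cell cannot be told apart.

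Cells enter the division cycle when D and E type cyclins, with their kinases, release E2F factors, which switch on genes for copying DNA. The MCM proteins form the helicase that opens replication origins, and ribonucleotide reductase and thymidylate synthase supply the nucleotides. B type cyclins with Cdk1, then Plk1 and the Aurora kinases, drive mitosis, and the anaphase-promoting complex ends it by marking cyclins for destruction. The tubule cells of adult kidney divide rarely, and they divide more often after injury.

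Each array was scaled by its 75th percentile of processed signal, so that a relative signal of 1 is a spot as bright as that percentile, and values below a floor of 0.005 were set to it. A probe was kept if 4 or more arrays had it well above background, as the scanner software judges this, and the brightest kept probe stood for the gene. The 75th percentile itself was 455 ± 53.0 on APL arrays and 291 ± 18 on Control arrays (SD, n = 4 each; exact two-sided permutation p = 0.0286, the smallest that 70 splits allow). Genome-wide, 80.8% ± 0.838 of probes were well above background on APL arrays and 75% ± 1.53 on Control arrays (SD, n = 4 each). APL and Control arrays took different positions on each slide, so position and treatment cannot be told apart.

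Some mitotic genes (7 of 21 tested) and part of the replication helicase were called higher in APL kidneys, while cyclin D1 was called lower. Of the 35 members, 10 rose and 1 fell (limma, adjusted p under 0.05), which is 28.6% and 2.86%. Across everything tested, 11.9% of genes were called higher, 11.5% lower and 23.5% either way. All 4 APL arrays lay above all Control arrays for 10 members and below them for 1, against 14.0% and 15.9% of everything tested, or 29.9% either way. The genes that rose were Ube2c, Plk1, Mcm3, Ccnb1, Ccnb2, Tpx2, Mki67, Nusap1, Mcm7 and Mcm4, and the gene that fell was Ccnd1. Ccnb2, in both counts of 10, was well above background on no Control array and passed the detection filter through APL arrays only. A further 24 members were not called. An unadjusted p under 0.05 was found for 15 of the 35, against 7938 of all 21420 genes or transcripts tested.

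The mitotic members had a median log2 fold change (APL over Control) of 1.51, with 7 of 21 called higher and none lower. This median was 0.31 with normexp and quantile scaling. Normexp is a background correction fitted over each array's median spot signals after the local background is subtracted. An offset of 50 was then added, which shrinks the log2 folds of dim spots. The parts of the correction and of the offset were not tested apart. With normexp and the 75th percentile, 5 of the 35 members were called higher in place of 10. For S phase members the median was 0.59, with 3 of 14 higher and 1 lower. All 21420 genes had a median of -0.03, and the middle 50% of them lay between -0.58 and 0.74. A log2 fold change above 1 was seen for 15 of 21 mitotic members, 6 of 14 S phase members and 19.0% of all genes. Signal was well above background on every Control array for 11 of 21 mitotic members, 11 of 14 S phase members and 18022 of all 21420 genes. Where Control signal is near background, the floor and the background correction set the fold. By sign alone, 20 of 21 mitotic members, 9 of 14 S phase members and 10474 of all 21420 genes were positive. No difference between the phases was tested.

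**Figure D1:**
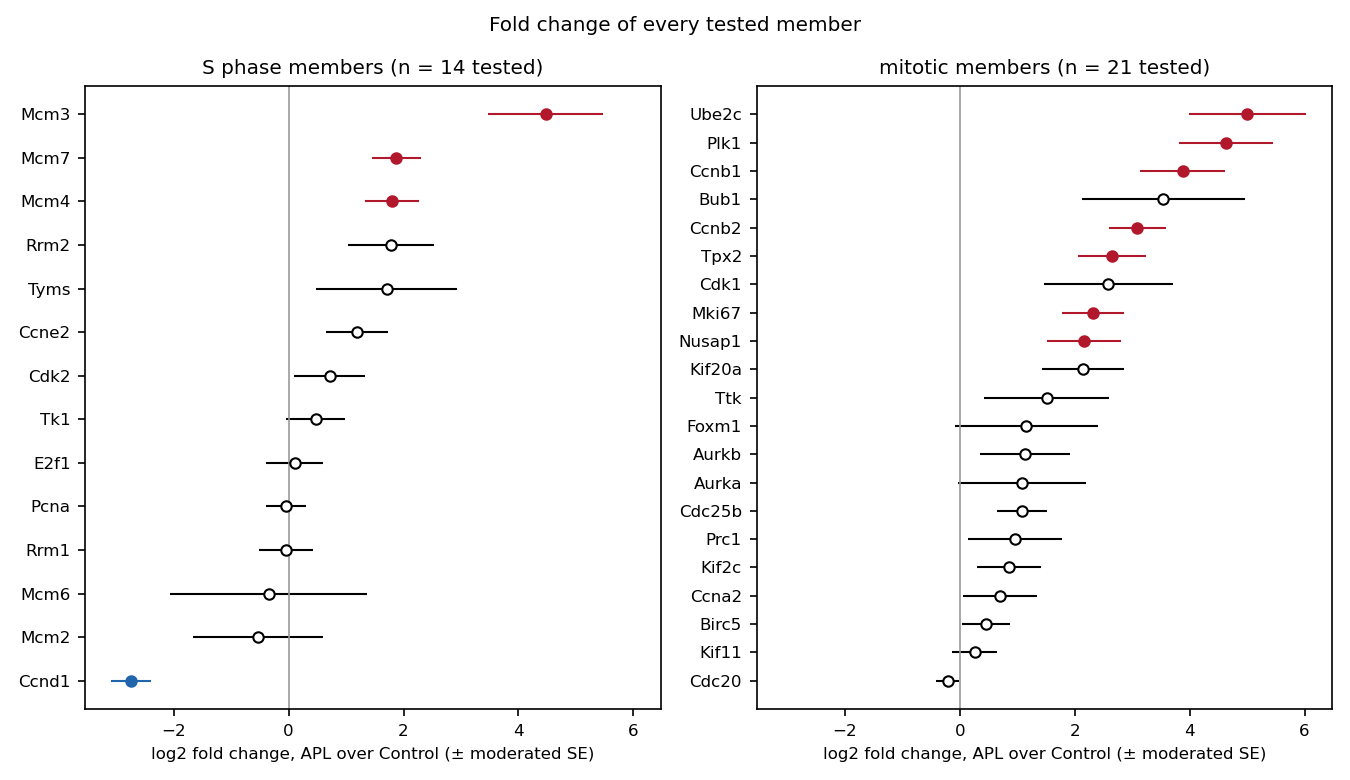
Log2 fold change, APL over Control, of each tested member with its moderated SE; red points were called higher, the blue point lower, and open points were not called. Mitotic members on the right run up to 5.0 for Ube2c with only Cdc20 below 0 (-0.22), and S phase members on the left run between -2.74 for Ccnd1 and 4.47 for Mcm3.

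Promoters of members were read because S phase and mitotic genes are known to use different control elements. E2F factors bind sites written TTCCCGC in one form, and in others TTGGCGC, with TTCGCGC and also TTGCCGC among them. The complex that governs many mitotic genes recognises the element called CHR, written TTTGAA or TTCGAA, often near CCAAT boxes bound by NF-Y. Both strands were searched in windows of 250 bases before to 50 bases after each start, taken from RefSeq on GRCr8, for 31 members (32 windows). An E2F motif was in 8 of 11 S phase windows (72.7%) and 3 of 21 mitotic windows (14.3%), against 9.52% of all 33469 windows. A CHR motif was in 3 of 11 S phase windows (27.3%) and 13 of 21 mitotic windows (61.9%), against 19.7% of all. CCAAT was in 7 S phase windows (63.6%) and 16 mitotic windows (76.2%), against 37.5% of all. Both CHR and CCAAT were in 12 mitotic windows (57.1%), 2 S phase windows (18.2%) and 7.95% of all. Of the 7 windows of members called higher, 7 held CCAAT, 5 CHR and 4 an E2F motif; of the 19 windows of tested members not called, 12 held CCAAT, 8 CHR and 6 E2F. A match is a description of letters, and binding was not measured.

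The windows of 4 genes that rose are shown, a pair of mitotic ones with CHR and CCAAT and a pair of helicase ones with E2F. Capitals mark every motif of the 3 kinds, on either strand, and each sequence is written 5′ to 3′ along its gene. Plk1 lies at chr1:186147408-186147707 (plus strand), Ccnb2 at chr8:79981609-79981908 (minus), Mcm3 at chr9:30733697-30733996 (minus) and Mcm7 at chr12:22163129-22163428 (minus).
Plk1: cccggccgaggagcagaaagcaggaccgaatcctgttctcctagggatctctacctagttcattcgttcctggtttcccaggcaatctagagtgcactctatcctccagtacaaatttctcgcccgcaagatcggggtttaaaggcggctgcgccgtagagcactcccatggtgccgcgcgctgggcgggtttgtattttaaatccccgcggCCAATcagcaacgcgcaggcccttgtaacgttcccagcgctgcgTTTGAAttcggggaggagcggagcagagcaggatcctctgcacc
Ccnb2: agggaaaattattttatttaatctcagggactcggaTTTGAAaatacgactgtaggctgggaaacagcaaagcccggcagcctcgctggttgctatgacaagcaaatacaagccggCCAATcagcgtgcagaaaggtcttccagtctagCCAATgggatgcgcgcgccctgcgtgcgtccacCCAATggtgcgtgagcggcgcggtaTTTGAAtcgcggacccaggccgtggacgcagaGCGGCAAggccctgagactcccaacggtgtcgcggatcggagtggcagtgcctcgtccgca
Mcm3: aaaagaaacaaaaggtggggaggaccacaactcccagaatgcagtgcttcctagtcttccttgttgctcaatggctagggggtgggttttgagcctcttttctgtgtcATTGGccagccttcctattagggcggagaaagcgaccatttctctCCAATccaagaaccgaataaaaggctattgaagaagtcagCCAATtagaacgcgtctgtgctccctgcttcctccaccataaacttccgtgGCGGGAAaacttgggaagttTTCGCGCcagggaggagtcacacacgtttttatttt
Mcm7: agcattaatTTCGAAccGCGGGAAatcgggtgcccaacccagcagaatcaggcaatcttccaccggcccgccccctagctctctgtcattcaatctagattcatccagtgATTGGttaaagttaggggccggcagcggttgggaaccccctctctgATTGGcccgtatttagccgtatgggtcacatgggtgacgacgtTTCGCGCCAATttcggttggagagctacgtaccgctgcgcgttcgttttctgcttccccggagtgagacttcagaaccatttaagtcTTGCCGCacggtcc
In Plk1 the CCAAT box begins at -38 from the start and the TTTGAA at 7. In Ccnb2, 3 CCAAT boxes begin at -134, -101 and -68 and a TTTGAA at -43, with a second TTTGAA at -214 and a reverse E2F motif at -11. Mcm3 holds E2F motifs at -6 (reverse) and 15, and CCAAT boxes at -142 (reverse), -97 and -57. Mcm7 holds 4 E2F motifs, of which those at -51 and -48 overlap each other and the CCAAT box at -45, and a palindromic TTCGAA at -241.

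Cyclin D1 (Ccnd1), which partners Cdk4 and Cdk6 to carry cells through G1, moved against the other called members. Its relative signal was 0.473, 0.294, 0.187 and 0.384 on APL arrays 1 to 4, against 2.30, 1.53, 1.86 and 3.02 on Control arrays 1 to 4. Every APL array lay below every Control array, and the signal was well above background on all 8. The log2 fold change was -2.74 ± 0.35 (SE), or 0.150 of the Control level (limma, adjusted p = 0.00115). It held on both slides, at -2.33 on slide 1 and -3.14 on slide 2.

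The other G1 members were not called. Cyclin E2 (Ccne2) had a log2 fold change of 1.19 ± 0.54 (adjusted p = 0.147). Its partner kinase Cdk2 had one of 0.71 ± 0.62 (adjusted p = 0.434). Both showed overlapping groups, as did the transcription factor E2f1, at 0.10 ± 0.50. E2f1 signal was 0.298, 0.122, 0.0554 and 0.186 on APL arrays and 0.148, 0.108, 0.0993 and 0.177 on Control arrays. Cyclin E1 (Ccne1) was well above background on 2 APL arrays and 1 Control array, too few to test.

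Of the 6 tested members of the helicase and clamp group, 3 rose, all of them helicase subunits. Mcm7 read 6.42, 5.43, 6.32 and 8.74 on APL arrays and 2.49, 2.21, 0.746 and 2.60 on Control arrays. The groups did not overlap, and Control array 3 lay apart from the other 3 Control arrays. Mcm7 rose by 1.87 ± 0.42 on the log2 scale, 3.67-fold (adjusted p = 0.0164). With normexp, which from here on is paired with the 75th percentile unless quantile scaling is named, it was not called (adjusted p = 0.0737).

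Mcm4 was at 3.40, 2.46, 4.31 and 4.82 on APL arrays and 1.08, 1.29, 0.432 and 1.97 on Control arrays. Here too every APL array lay above every Control array, with Control array 3 the lowest. The rise was 1.80 ± 0.47 on the log2 scale, 3.48-fold (adjusted p = 0.0284). The Mcm4 call was lost without APL array 1, 3 or 4 or Control array 1, with adjusted p of 0.0569, 0.0683, 0.0767 and 0.0579, and also with normexp (adjusted p = 0.0933). A dimmer Mcm4 probe gave 1.57 ± 0.72 with overlapping groups (adjusted p = 0.158).

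Mcm3 had 0.402, 0.275, 0.739 and 0.973 on APL arrays and 0.0148, 0.166, 0.005 and 0.0266 on Control arrays. The groups did not overlap, but only 2 Control arrays were well above background and Control array 3 sat at the floor. The fitted log2 fold change was 4.47 ± 0.99 (adjusted p = 0.0157). A dimmer second Mcm3 probe gave 0.97 ± 0.66 with overlapping groups (adjusted p = 0.326), so the size of the Mcm3 change rests on which probe is read. With normexp the brighter probe gave 1.95 (adjusted p = 0.00266).

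Mcm2 shows the same dependence more sharply. Its brighter probe read 0.0719, 0.185, 0.0448 and 0.157 on APL arrays and 0.158, 0.126, 1.1 and 0.0186 on Control arrays. Control array 3 was far above the other 7 arrays, and the log2 fold change was -0.53 ± 1.13 (adjusted p = 0.761). The other Mcm2 probe read 0.360, 0.285, 0.111 and 0.615 on APL arrays, against 0.0905, 0.0144, 0.00927 and 0.0135 on Control arrays. On that probe the groups did not overlap and the log2 fold change was 3.85 ± 0.79 (adjusted p = 0.0118). Mcm2 is therefore counted among the uncalled members, with its direction unsettled.

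The remaining helicase subunit tested, Mcm6, was well above background on 2 arrays of each group and had a log2 fold change of -0.35 ± 1.71. Pcna, the sliding clamp that holds DNA polymerase on its template, differed by less than its spread. Its signal was 1.0, 1.5, 1.85 and 2.65 on APL arrays and 1.59, 1.87 and 1.66 on Control arrays 1 to 3, with the spot on Control array 4 left out as non-uniform. The APL arrays lay on both sides of the Control arrays. Pcna had a log2 fold change of -0.04 ± 0.35 (adjusted p = 0.937), fitted with 3 Control arrays.

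None of the 4 nucleotide supply genes was called. Rrm2, the regulated subunit of ribonucleotide reductase, had 3.42, 0.985, 0.988 and 5.62 on APL arrays and 0.270, 1.66, 0.654 and 0.452 on Control arrays. APL arrays 1 and 4 stood above all Control arrays, while APL arrays 2 and 3 lay below Control array 2. The log2 fold change of Rrm2 was 1.79 ± 0.75 (adjusted p = 0.123). A second, dimmer Rrm2 probe read 0.132, 0.144, 0.0148 and 0.293 on APL arrays and was not well above background on any Control array. That probe was at least 5.79-fold higher (adjusted p = 0.0254), although APL array 3 lay below Control array 1 at 0.0169. The dimmer probe passed the detection filter through APL arrays only, so its p-value rests on Control values not told from background. Thymidylate synthase (Tyms) had a log2 fold change of 1.71 ± 1.23. Thymidine kinase (Tk1) had 0.47 ± 0.51, and Rrm1, the large reductase subunit, had -0.05 ± 0.47.

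**Figure D2:**
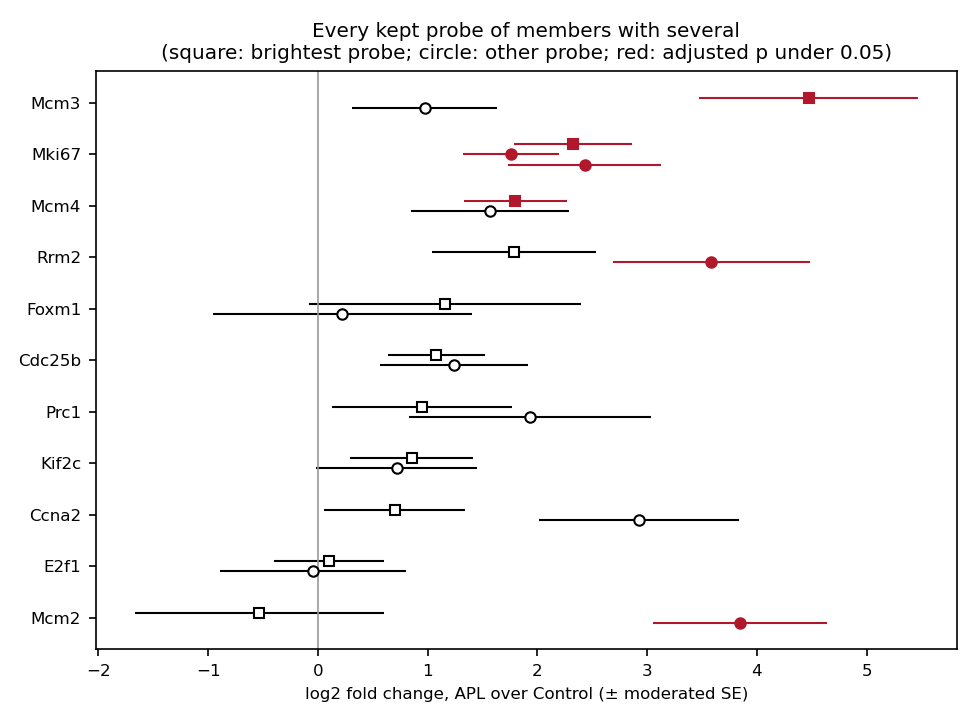
Log2 fold change, APL over Control, with moderated SE for every kept probe of the 11 members with more than one; squares mark the brightest probe, circles the others, and red marks an adjusted p under 0.05. The probes of Mki67 stand together between 1.76 and 2.43, whereas those of Mcm2 stand at -0.53 and 3.85.

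Among mitotic cyclins and entry factors both B cyclins rose. Cyclin B1 (Ccnb1), the main activator of Cdk1 at mitosis, read 1.53, 0.226, 0.540 and 0.592 on APL arrays and 0.0302, 0.0218, 0.140 and 0.0257 on Control arrays. The lowest APL array, array 2, still lay above the highest Control array, array 3. The log2 fold change was 3.88 ± 0.74, or 14.7-fold (adjusted p = 0.00820). It was 1.92 with normexp (adjusted p = 0.00609), and with normexp and quantile scaling the adjusted p was 0.0520.

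Cyclin B2 (Ccnb2) read 0.106, 0.0470, 0.0238 and 0.0886 on APL arrays and 0.005, 0.00904, 0.005 and 0.00891 on Control arrays. It was well above background on all 4 APL arrays and on no Control array, so only a bound can be given. Taking each Control array at the lowest signal that counted as well above background, Ccnb2 was at least 3.56-fold higher in APL kidneys. Its probe passed the detection filter through the APL arrays only. The call (limma, adjusted p = 0.00370) therefore sets APL signal against Control values not told from background, and is no separate support. The call was lost with normexp (adjusted p = 0.464).

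Cdk1, the kinase that B cyclins activate, was not called. Its signal was 0.363, 0.218, 0.253 and 1.12 on APL arrays and 0.107, 0.0495, 0.00829 and 0.399 on Control arrays. Control array 4 lay above 3 of the 4 APL arrays. The log2 fold change was 2.58 ± 1.12 (adjusted p = 0.135), and without Control array 4 it was 3.46 (adjusted p = 0.0450). That was the only 1 of the 8 fits without an array that called Cdk1. Those fits ran from 1.59 to 3.46, with limma adjusted p up to 0.287, and none of the 13 other settings called it. Cyclin A2 (Ccna2), active in S phase and G2, had a log2 fold change of 0.70 ± 0.64 on its brighter probe and 2.92 ± 0.91 on the other (adjusted p = 0.0525). The phosphatase Cdc25b, which removes inhibitory phosphates from Cdk1, had 1.08 ± 0.44 (adjusted p = 0.113). Foxm1, the transcription factor of many G2 genes, had 1.16 ± 1.24, and Control array 4 alone was near the floor at 0.00713.

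Polo-like kinase 1 (Plk1), which acts in mitotic entry and spindle assembly, rose in every APL array relative to every Control array. It read 2.45, 0.713, 0.435 and 2.05 on APL arrays and 0.0568, 0.0603, 0.108 and 0.0110 on Control arrays. APL arrays 1 and 4 were the brightest, and the groups did not overlap. Plk1 had a log2 fold change of 4.64 ± 0.82, 24.9-fold (adjusted p = 0.00561). With normexp it was 2.32 (adjusted p = 0.00648). The Aurora kinases were not called. Aurkb, of the chromosomal passenger complex, had 1.14 ± 0.78, and Aurka, of the spindle poles, had 1.08 ± 1.11.

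Ube2c, the ubiquitin-conjugating enzyme that works with the anaphase-promoting complex, rose as well. Its signal was 0.960, 0.594, 0.572 and 1.70 on APL arrays and 0.0946, 0.0108, 0.005 and 0.103 on Control arrays. The groups did not overlap, and 2 Control arrays were well above background. The log2 fold change was 5.0 ± 1.02 (adjusted p = 0.0109), and 2.10 with normexp (adjusted p = 0.00390).

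The spindle checkpoint members were not called. Bub1, a checkpoint kinase, read 0.597, 0.106, 0.005 and 0.341 on APL arrays and 0.00770, 0.0259, 0.005 and 0.00597 on Control arrays. The other 3 APL arrays stood above all Control arrays, with APL array 3 at the floor. Bub1 had a log2 fold change of 3.54 ± 1.42 (adjusted p = 0.111), and 4.99 without APL array 3 (adjusted p = 0.00547). The probe was well above background on 3 APL arrays and 1 Control array, so both values rest on Control signal mostly not told from background. A second Bub1 probe sat at the floor of 0.005 on all 8 arrays and was not kept. Ttk, the kinase also called Mps1, had 1.51 ± 1.09. Cdc20, an activator of the anaphase-promoting complex, was the only tested mitotic member with a negative value, and it was positive without scaling between arrays (0.42). Cdc20 signal was 1.11, 0.982, 0.839 and 0.963 on APL arrays and 0.906, 1.23, 1.26 and 1.14 on Control arrays, a log2 fold change of -0.22 ± 0.20 (adjusted p = 0.460).

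Mki67, whose protein Ki-67 is the usual marker of cycling cells, rose on each of its 3 probes. The brightest read 1.68, 0.673, 1.07 and 1.75 on APL arrays and 0.161, 0.387, 0.477 and 0.113 on Control arrays. Its groups did not overlap, and APL array 2 was the lowest of the APL arrays. Mki67 had a log2 fold change of 2.32 ± 0.54, 5.0-fold (adjusted p = 0.0183). The other probes gave 1.76 and 2.43 with no overlap (adjusted p = 0.0253 and 0.0401). Without APL array 4 the brightest probe gave 2.14 (adjusted p = 0.0541).

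Of the 6 kinesins and spindle proteins, 2 rose. Tpx2, which activates Aurora A on the spindle, had 0.308, 0.136, 0.173 and 0.229 on APL arrays and 0.0434, 0.0915, 0.0137 and 0.0201 on Control arrays. These groups stood apart, and 2 Control arrays were well above background. Tpx2 had a log2 fold change of 2.64 ± 0.59, 6.25-fold (adjusted p = 0.0161), and 1.13 with normexp (adjusted p = 0.129).

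Nusap1, a microtubule-binding protein, read 0.288, 0.0931, 0.255 and 0.392 on APL arrays and 0.0875, 0.0237, 0.0287 and 0.113 on Control arrays. APL array 2 lay below Control array 4, so the groups overlapped. Its log2 fold change of 2.16 ± 0.64 was called narrowly (adjusted p = 0.0451). The Nusap1 call was kept in only 2 of the 8 fits that left out an array, those without Control array 4 or APL array 2, and with normexp the adjusted p was 0.0518. It was also lost with slide as a block (adjusted p = 0.0540), with quantile scaling (0.0693) and without the detection filter (0.0692).

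The motor Kif20a, used in cytokinesis, was the reverse case, with groups that did not overlap and no call. It had 1.33, 1.04, 1.98 and 0.892 on APL arrays and 0.702, 0.707, 0.102 and 0.125 on Control arrays. On slide 1 the Kif20a difference was 0.74 on the log2 scale and on slide 2 it was 3.56. The fitted value was 2.15 ± 0.71 (adjusted p = 0.0636), and with slide as a block the adjusted p was 0.0450. The other motor and midzone genes, Kif2c, Prc1 and Kif11, had log2 fold changes of 0.86, 0.95 and 0.26 with overlapping groups. Survivin (Birc5), of the chromosomal passenger complex, had 0.46 ± 0.42. Cenpa, the centromere histone, was not well above background on any array.

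**Figure D3:**
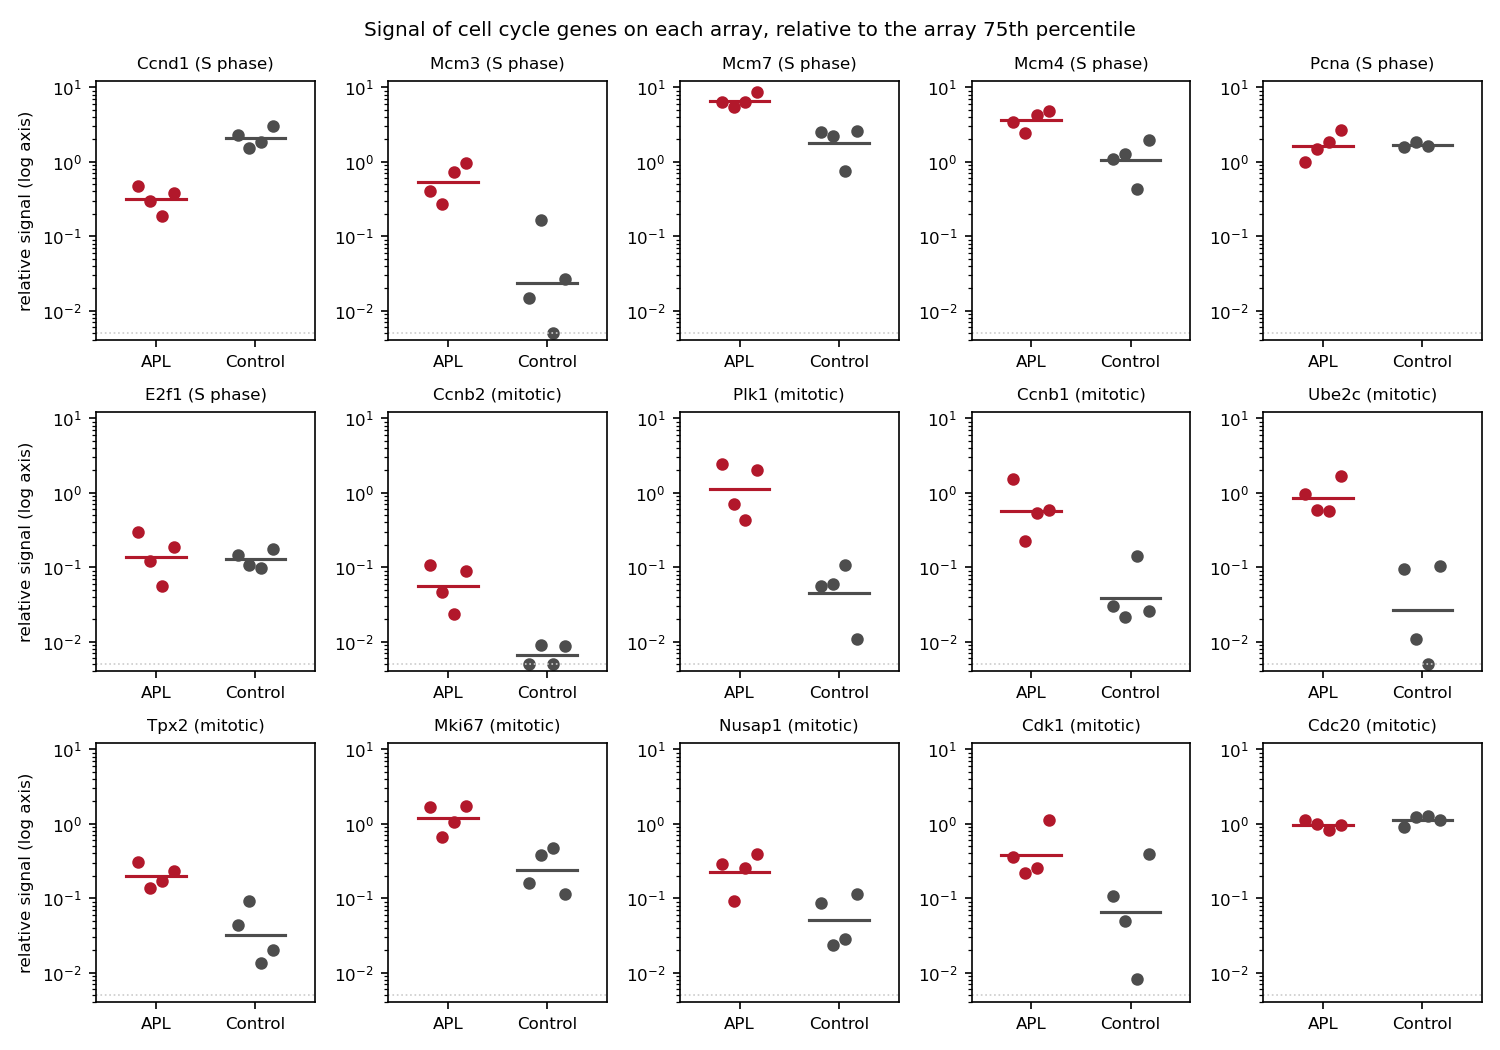
Relative signal on a log axis for 15 members, 1 panel each, with APL arrays left (red) and Control arrays right (grey); points are arrays, bars are means of log2 values, and the dotted line is the floor of 0.005. Plk1, Ccnb1 and Ube2c arrays are separated by group, Ccnd1 is separated the other way, and Pcna, E2f1 and Cdc20 overlap.

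Members varied together within each group. APL array 4 was the highest of its group for 20 of the 35 members (57.1%), against 24.0% of all genes. APL array 2 was highest for 1 member and lowest for 15, and APL array 3 was lowest for 16. The Control arrays were uneven as well, with Control array 4 highest for 16 of 34 members (47.1%), against 22.1% of all genes. Control array 3 was lowest for 15 of 34 (44.1%), against 25.2% of all genes. For the 10 members called higher, the top array was array 4 for 6 and array 1 for 4. Taken as the median distance from the Control mean on the log2 scale, mitotic members stood at 2.08, 1.16, 1.0 and 2.30 on APL arrays 1 to 4. The same median on Control arrays 1 to 4 was 0.42, 0.02, -0.53 and 0.02. S phase members had medians of 1.01, 0.25, 0.74 and 1.27 on APL arrays and 0.14, -0.22, -0.29 and 0.52 on Control arrays. Members are not replicates of one another, and these medians are a description.

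Slide 1 carried arrays 1 and 2 of each group, and slide 2 arrays 3 and 4. The mitotic median was 1.0 on slide 1 and 2.37 on slide 2, and the S phase median was 0.73 on slide 1 and 0.51 on slide 2. With slide as a block 10 of the 11 member calls were kept, Nusap1 was lost and Kif20a was gained.

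**Figure D4:**
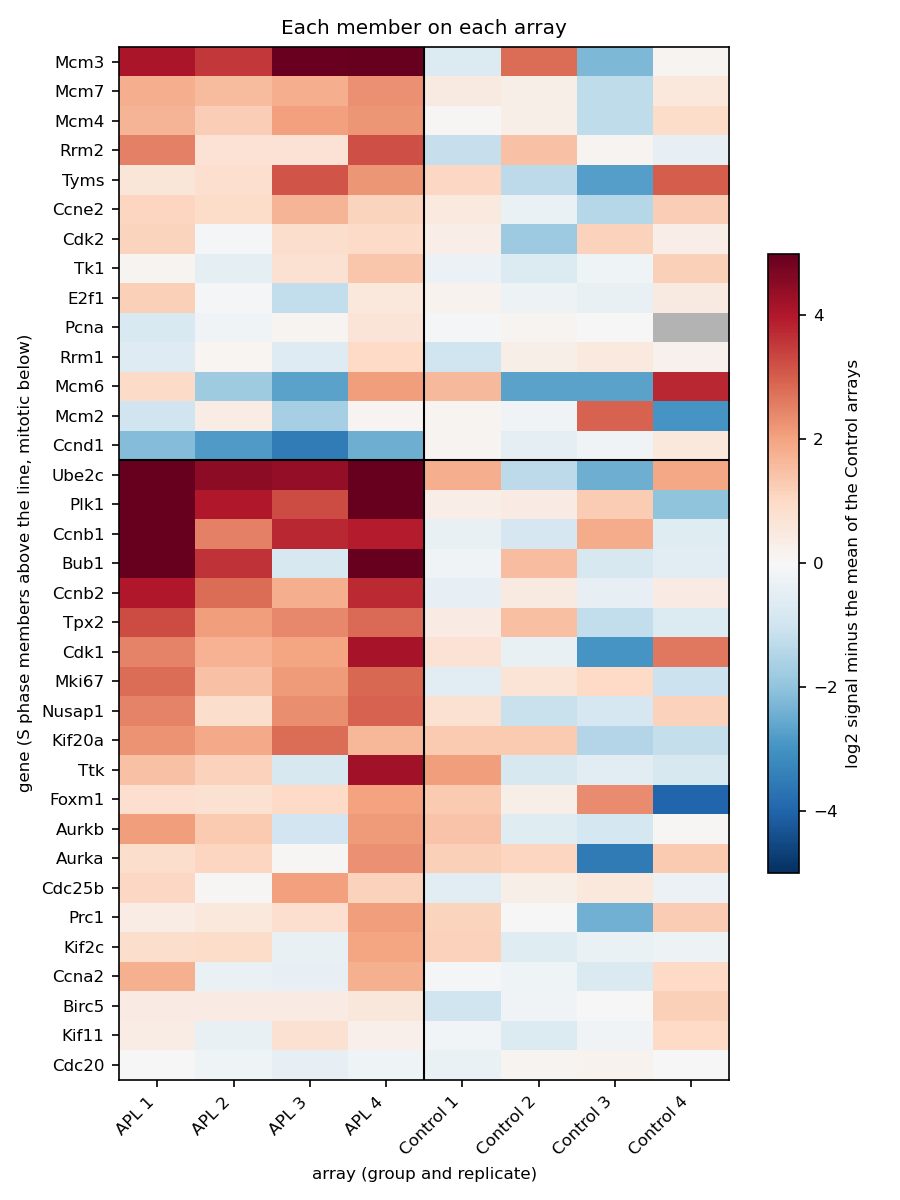
Log2 signal of each tested member (rows) on each array (columns, APL left of Control) minus the mean of the Control arrays; red is above and blue below that mean, colours end at 5 in each direction, and the grey cell is the spot left out. The mitotic rows below the line are reddest on APL arrays 1 and 4, and Ccnd1 is the one row that is blue on all 4 APL arrays and called.

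Other genes of the same pathway were taken from lists chosen by function, but with earlier results of these data known. Their counts and medians are therefore a description and no separate support for the members. Of 55 further mitotic genes, 40 were tested, and 8 rose and 0 fell (20.0% and 0%, against 11.9% and 11.5% of everything tested). The 40 had a median log2 fold change of 1.68. An unadjusted p under 0.05 was found for 14 of the 40, against 7938 of all 21420 genes or transcripts tested. The chromokinesin Kif22 read 0.640, 0.396, 1.55 and 1.21 on APL arrays and 0.0753, 0.0263, 0.0169 and 0.114 on Control arrays. It rose by 4.23 ± 0.70 on the log2 scale (adjusted p = 0.00405), and its groups did not overlap. Cenpw, a kinetochore protein, rose by 3.23 ± 0.56 (adjusted p = 0.00502). Cks2, a small subunit of cyclin-dependent kinases, rose by 2.41 ± 0.57 (adjusted p = 0.0204), though without APL array 4 its adjusted p was 0.0589. Nuf2, of the Ndc80 kinetochore complex, was not well above background on any Control array and was at least 6.91-fold higher (adjusted p = 0.0106). It passed the detection filter through APL arrays only, so that p-value rests on Control values not told from background. The Nuf2 call was lost with a floor of 0.02 (adjusted p = 0.0626), with normexp (0.209) and with normexp and quantile scaling (0.115). The other called genes, named after their values were seen, were Ect2, Cdca3, Dlgap5 and Mad2l1, at 2.22, 3.07, 3.14 and 1.99. Their calls were kept in 3 (Ect2) or 2 (each of the others) of the 8 fits that left out an array, and the groups of Cdca3 overlapped. With normexp Ect2 and Cdca3 were not called (adjusted p = 0.0573 and 0.0871).

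Of 46 further replication genes, 38 were tested, 3 rose and 3 fell, with a median of 0.63. Each count is 7.89%, below the 11.9% higher and 11.5% lower of everything tested. Chaf1b, of the chromatin assembly factor CAF-1, rose by 2.61 ± 0.50 (adjusted p = 0.00838), with 0.443 to 1.69 on APL arrays and 0.0831 to 0.264 on Control arrays. Pola1, the catalytic subunit of polymerase alpha, rose by 3.33 ± 0.88 (adjusted p = 0.0295), but its lowest APL array (0.0658) and its highest Control array (0.0653) nearly met. Control arrays 1 to 3 sat at the floor and only 1 Control array was well above background, so the floor sets the size of the Pola1 fold. The Pola1 call was kept in 1 of the 8 fits that left out an array. It was lost with normexp (adjusted p = 0.225) and with normexp and quantile scaling (0.187). Timeless, of the fork protection complex, was called at 3.36 with overlapping groups, kept its call in 2 of those 8 fits and was named after its values were seen. Among the genes that fell were Prim2, the large primase subunit, and Rfc5, a clamp loader subunit. Prim2 fell by 2.30 ± 0.53 on the log2 scale (adjusted p = 0.0180) and Rfc5 fell by 1.25 ± 0.22 (adjusted p = 0.00583), each with no overlap. With normexp neither was called (adjusted p = 0.219 for Prim2 and 0.828 for Rfc5).

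Of 24 other G1 regulators, 18 were tested, 3 rose and 1 fell, with a median of 0.27. These counts are 16.7% and 5.56%, against 11.9% and 11.5% of everything tested. Cdk4, the kinase partner of cyclin D1, read 7.88, 6.5, 4.37 and 7.74 on APL arrays and 2.43, 1.82, 1.77 and 1.6 on Control arrays. Every APL array lay above every Control array, the opposite of Ccnd1, and Cdk4 rose by 1.78 ± 0.26 (adjusted p = 0.00225). The transcription factor Myc rose by 3.32 ± 0.68 (adjusted p = 0.0108), with 0.719 to 2.99 on APL arrays and 0.0652 to 0.479 on Control arrays. Ccnh, of the kinase that activates cyclin-dependent kinases, rose by 1.37 ± 0.23 (adjusted p = 0.00479), and was not called with normexp (adjusted p = 0.0546). Rbl2, the retinoblastoma relative p130 found in resting cells, fell by 0.96 ± 0.28 (adjusted p = 0.0396), and its call was kept in 1 of the 8 fits that left out an array.

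Of 19 inhibitors of cyclin-dependent kinases and growth arrest genes, 18 were tested, 3 rose and 1 fell, with a median of 0.76, the same shares as for the G1 regulators (16.7% and 5.56%). Btg2, an antiproliferative gene, read 7.65, 6.69, 10.3 and 5.56 on APL arrays and 0.797, 0.523, 0.198 and 0.521 on Control arrays. The groups were far apart, and the log2 fold change was 4.01 ± 0.43 (adjusted p = 0.000535). Its relative Btg1 rose by 1.18 ± 0.21 (adjusted p = 0.00609), and Gadd45b, a stress gene, rose by 2.78 ± 0.66 (adjusted p = 0.0202). Btg1 was not called with normexp (adjusted p = 0.106), and Gadd45b was not called without APL array 2, APL array 3 or Control array 1 (adjusted p = 0.0530, 0.0523 and 0.0506). Cdkn2d, which encodes an inhibitor of Cdk4 and Cdk6, was called lower at -1.28 with overlapping groups, kept its call in 1 of the 8 fits without an array and was named after its values were seen. Cdkn1b, the p27 inhibitor, had 0.72 ± 0.29 and was not called (adjusted p = 0.111).

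The p21 inhibitor gene Cdkn1a gave unlike answers on its 2 probes. Its brighter probe read 13.3, 15.7, 19.1 and 9.16 on APL arrays and 9.22, 9.44, 12.1 and 10.3 on Control arrays, a log2 fold change of 0.44 ± 0.27 (adjusted p = 0.271 over probes). The second probe read 14.1, 27.2, 41.4 and 12.5 on APL arrays, against 1.45, 1.11, 0.0688 and 0.0514 on Control arrays. On the second probe no arrays overlapped and the log2 fold change was 6.26 ± 1.17 (adjusted p = 0.00762). Which transcripts each probe reads was not tested.

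**Figure D5:**
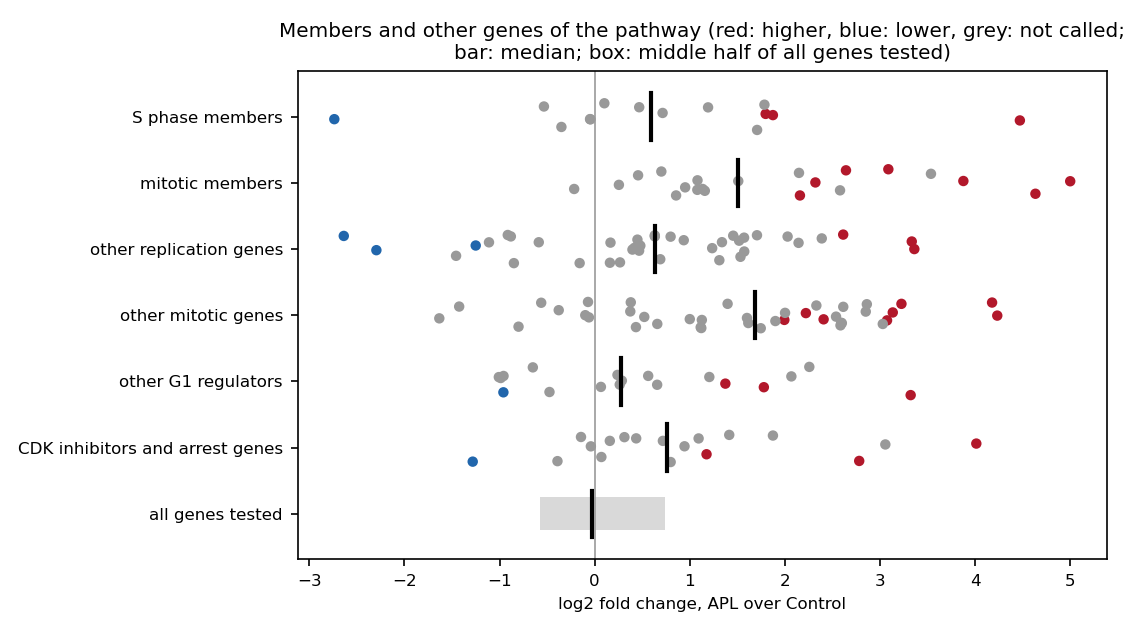
Log2 fold change, APL over Control, of members and of further genes of the pathway by list; points are genes (red called higher, blue lower, grey not called), black bars are medians, and the grey box spans the middle 50% of all genes tested. The medians of both mitotic lists, 1.51 and 1.68, lie right of the box edge at 0.74, and those of the S phase and replication lists, 0.59 and 0.63, lie inside it.

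Markers of several cell types also differed between the groups. Summed relative signal of 11 proximal tubule markers, all tested, was 49.0 to 69.1 on APL arrays and 534 to 609 on Control arrays. Of these markers 8 were lower and 2 higher. The higher ones were Slc5a2, with a log2 fold change of 3.04, and Slc5a12, with 4.61 but well above background on only 1 Control array. Defining genes of kidney tubule were measured in both groups. The 6 tested of 7 injured tubule markers, among them Havcr1 and Lcn2, summed to 51.1 to 99.9 on APL arrays and 0.933 to 1.91 on Control arrays, with 4 higher. Lcn2 alone read 41.3 to 84.1 on APL arrays, and Vcam1 and Krt8 were not called. For macrophages, 4 of 8 tested markers (of 11) were higher, and the sum was 23.3 to 30.8 on APL arrays and 7.5 to 15.2 on Control arrays. Csf1r and Adgre1 had log2 fold changes of -0.24 and -0.34 and were not called. Markers of fibroblasts and myofibroblasts, 7 tested of 9, summed to 29.9 to 93.2 on APL arrays and 14.5 to 18 on Control arrays, with 2 higher and 1 lower. The higher ones, Col3a1 and Col1a1, made up most of that sum on every array. Pdgfra was lower (log2 fold change -1.25), and Dcn (-0.21) and Pdgfrb (0.22) were not called. The T and NK cell markers, 5 tested of 10, summed to 0.676 to 1.38 on APL arrays and 0.718 to 1.36 on Control arrays, with none called. Cd3e, Cd2, Cd8a, Cd5 and Gzmb of that list, and Mrc1, Cd163 and Itgam of the macrophage list, were too dim to test. The 4 tested of 6 neutrophil markers summed to 0.439 to 1.11 on APL arrays and 0.0566 to 0.103 on Control arrays, with 2 higher. These were S100a8, well above background on no Control array, and S100a9, while Csf3r and Cxcr2 were not called. Endothelial markers, 7 of 7 tested, summed to 0.760 to 1.03 on APL arrays and 7.73 to 12.4 on Control arrays, with 6 lower. The part of these cell types in the member results was not tested.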

How the data were processed

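The arrays carried rat kidney RNA labelled with Cy3. Per the file headers, the authors read 8 one-colour arrays of Agilent design 028282 with Feature Extraction 10.5.1.1 (protocol GE1_105_Dec08, 5 micrometre scan), and the deposited intensity is the background-subtracted processed signal of each spot. The authors also deposited a log2 value table of the same arrays, scaled by an unstated step, with column medians of -0.136 to 0.0771; it correlated with the scanner values at 0.999 or above and served as an alternative.

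Spots of a probe were averaged, and each intensity was scaled to its array's 75th percentile, floored at 0.005 and taken to log2. Non-uniform spots were set to missing. Of 30367 probes, 24343 were kept, and the brightest kept probe stood for each gene. Fits used limma 3.58.1 (R 4.3.3), with eBayes moderation after lmFit and Benjamini-Hochberg adjustment over 21420 genes or transcripts, and were tested on simulated data. Symbols came from RefSeq accessions (GRCr8), which named 18643 probes. 4 arrays per group limit the precision. Same-numbered arrays did not deviate together (correlations of -0.016 to 0.048), so numbers were not taken as pairs.

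Values on every array were given for up to 3 called members of smallest adjusted p in each role, for any called member opposite to its phase's median, and for Mki67, Top2a (no probe matched), Pcna, Ccnd1 and Cdk1; from each further list, up to 4 called genes per direction with groups that do not overlap were named, plus Cdkn1a, Cdkn1b and Myc. Some genes that this rule names are not reported here. Array values of E2f1, Mcm2, Rrm2, Kif20a, Bub1 and Cdc20 were added after they were seen. Members and lists were chosen with earlier results of these data known.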

Additional observations from a re-analysis of the deposited data

Results flagged for a closer look

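Within a group of 4 arrays, a value was picked out when the gap between the highest or lowest array and its neighbour as a share of the group's whole log2 range, exceeded Dixon's 95% critical value. Chance alone picks out about 1 in 20 groups, and 5 of 69 were picked out here. Aurka on Control array 3 was the lowest of its group by 0.955 of the range, at the floor of 0.005. Ttk on Control array 1 was the highest by 0.911, at a relative signal of 0.0366. Birc5 on APL array 4 was the highest by 0.883, at 1.99, where the whole range was narrow (1.79 to 1.99). Mcm7 on Control array 3 was the lowest by 0.871, at 0.746. Rrm1 on Control array 1 was the lowest by 0.839, at 0.314.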

How the results depend on the processing

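Plk1, Ube2c and Ccnd1 were called in the same direction under all 13 alternatives and in all 8 fits without 1 array. Each has 1 probe, so the alternatives that average or swap probes could not change its values. The other detection filters changed only the genes fitted beside it, and the authors' table holds the same arrays. Members called higher numbered 5 with normexp and scaling to the 75th percentile, where the median of all genes moved to 0.36 and the genes called were 1040 higher and 973 lower. There, further genes of the pathway called lower numbered 0 (5 otherwise), and members highest on APL array 4 numbered 12. With normexp and quantile scaling the mitotic median was 0.31. Without scaling the median of all genes was 0.61, calls were 5886 higher and 1143 lower (83.7% higher, against 50.8%), 45 further genes were called higher and 2 lower, and the S phase median was 1.23. Quantile scaling of the processed signal put the median of all genes at -0.11.

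With the replicate number as a block, 7 members were called higher and 1 lower, and all genes called were 1644 higher and 1616 lower; Mcm3, Mcm4 and Mki67 lost their calls. The numbers were not taken as pairs, as same-numbered arrays did not deviate together, but whether samples were handled in pairs is not known. Leaving out 1 array gave 7 to 12 members higher and 1 lower, S phase medians of 0.18 to 0.88, mitotic medians of 1.05 to 2.13, 10 to 19 further genes higher and 3 to 5 lower, and 1609 to 2205 genes higher and 1777 to 2019 lower overall. The fewest further genes called higher came without APL array 4 (10) and APL array 2 (11), and the fewest lower (3) without Control array 1 or 4 or APL array 2. The genes called higher overall were 1609 without APL array 4 and 1625 without APL array 2.

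The sign turned only for members that were not called. With normexp and the 75th percentile Mcm6 had 0.35 and Rrm1 0.12, and with normexp and quantile Pcna had 0.026. Quantile scaling gave E2f1 -0.17. No scaling gave Cdc20 0.42, Mcm2 0.10, Pcna 0.62 and Rrm1 0.59. The mean of probes gave Mcm2 1.66, and the authors' table gave Pcna 0.10. The next brightest probe, an alternative chosen after seeing the data, gave E2f1 -0.045 and Mcm2 3.85. Without 1 array the ranges that crossed 0 were -1.24 to 0.91 for Mcm6, -0.40 to 0.15 for Rrm1, -0.27 to 0.19 for Pcna, -0.26 to 0.54 for E2f1, -1.51 to 0.45 for Mcm2, -0.10 to 1.51 for Aurka and -0.17 to 1.95 for Foxm1. The cause was not tested. Members such as Ccnb2, Mcm6, Bub1 and Ttk lie near background, where the floor, the background correction and the normexp offset of 50 set the fold.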
